A study of Saccharomyces cerevisiae with 4 samples.

Results

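This account follows 37 genes of the kinetochore, the spindle pole body and the microtubules, out of 5449 genes of budding yeast (Saccharomyces cerevisiae) measured on the same arrays. They were picked by gene symbol, with earlier results of these data known, and all 37 were found, each on 1 probe set that is not marked as shared with other transcripts. The comparison asked how expression differs in yeast given ebselen, an organic selenium compound known to attack thiol groups. The treated cultures received 100 µM ebselen for 3 h (2 arrays) and the controls received its solvent DMSO (2 arrays); the exposure time is given for ebselen only. Both groups were the wild-type strain W1588-4c, grown in YPD, a rich glucose medium, and taken in log phase, and the labels call the replicates of each group biological. One strain, one dose and one time limit what the data can describe. RNA was measured on 3′-primed Affymetrix yeast arrays.

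The spindle separates chromosomes at mitosis. In budding yeast it grows from spindle pole bodies, plaques set in the nuclear envelope, where γ-tubulin starts new microtubules made of α- and β-tubulin. Motors and crosslinkers slide, shorten or hold the microtubules, and at each centromere a kinetochore of layered complexes ties the chromosome to a microtubule end: the COMA complex near the DNA, the Mtw1 complex above it, then the Ndc80 rod and the Dam1 ring at the microtubule. Many of these genes are known to be transcribed in a set phase of the cell cycle.

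In the ebselen arrays the genes that start microtubules at the spindle pole body and those of several motors were higher, the midzone crosslinker ASE1 was lower, and the kinetochore complexes held genes that moved either way or did not pass the test. Of the 37 genes, 18 rose (48.6%) and 6 fell (16.2%), together 24, in limma with Benjamini-Hochberg adjustment over all genes (adjusted p under 0.05), while 13 did not pass. Over all 5449 genes the same test called 33.0% higher and 38.8% lower, together 71.7%, so the total share of these genes that passed was no larger than that of genes at large. The median log2 change, ebselen minus DMSO, was 0.30 over the 37 genes and −0.03 over all genes. Changes of at least 2-fold were 6 rises (SPC97, SPC110, KAR3, SPC98, DAD3 and STU2) and 2 falls (ASE1 and NSL1), against 4.18% rises and 7.56% falls of that size over all genes. Both ebselen arrays lay above both DMSO arrays for 22 of the 37 and below both for 6, and the arrays overlapped for 9. Over all genes 86.6% did not overlap. Of the fission yeast probe sets on the same arrays, a background described below, 42.5% did not overlap either, so lack of overlap alone is a weak sign of change.

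Values below are log2 levels relative to a gene's own median over the 4 arrays, as the authors deposited them. They order the arrays for 1 gene and do not compare levels between genes, and the middle arrays of a gene have values of equal size and opposite sign by construction. Changes carry limma's moderated standard error (SE, n = 2 arrays per group). Over the 5449 genes the SD of the difference between replicates was 0.143 for ebselen and 0.116 for DMSO, against 0.726 to 0.731 between arrays of different groups. The scale of the arrays sets where 0 lies. Fission yeast probe sets on the same arrays, which served as a background, had a 99th percentile of 0.60 for the size of their change. Of the 37 genes 13 changed by more, and of all 5449 genes 1649 did, so this is not particular to the 37. With the arrays scaled on 9 hybridization-control probe sets (foreign transcripts spiked into each hybridization), every gene's change was lowered by the same 0.337, so any rise smaller than that took a negative sign by construction. The median change of all genes became −0.37, with 668 genes higher and 3090 lower against 1796 and 2113 as deposited. Of the 37 genes, 10 then rose and 9 fell, with a median of −0.04, and 16 of the 24 called genes kept their call. Each array was shifted by its own value, so limma's standard errors differed from those of the main fit as well. These control probe sets did not change alike: their differences ran from −0.03 to 0.66.

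**Figure D1:**
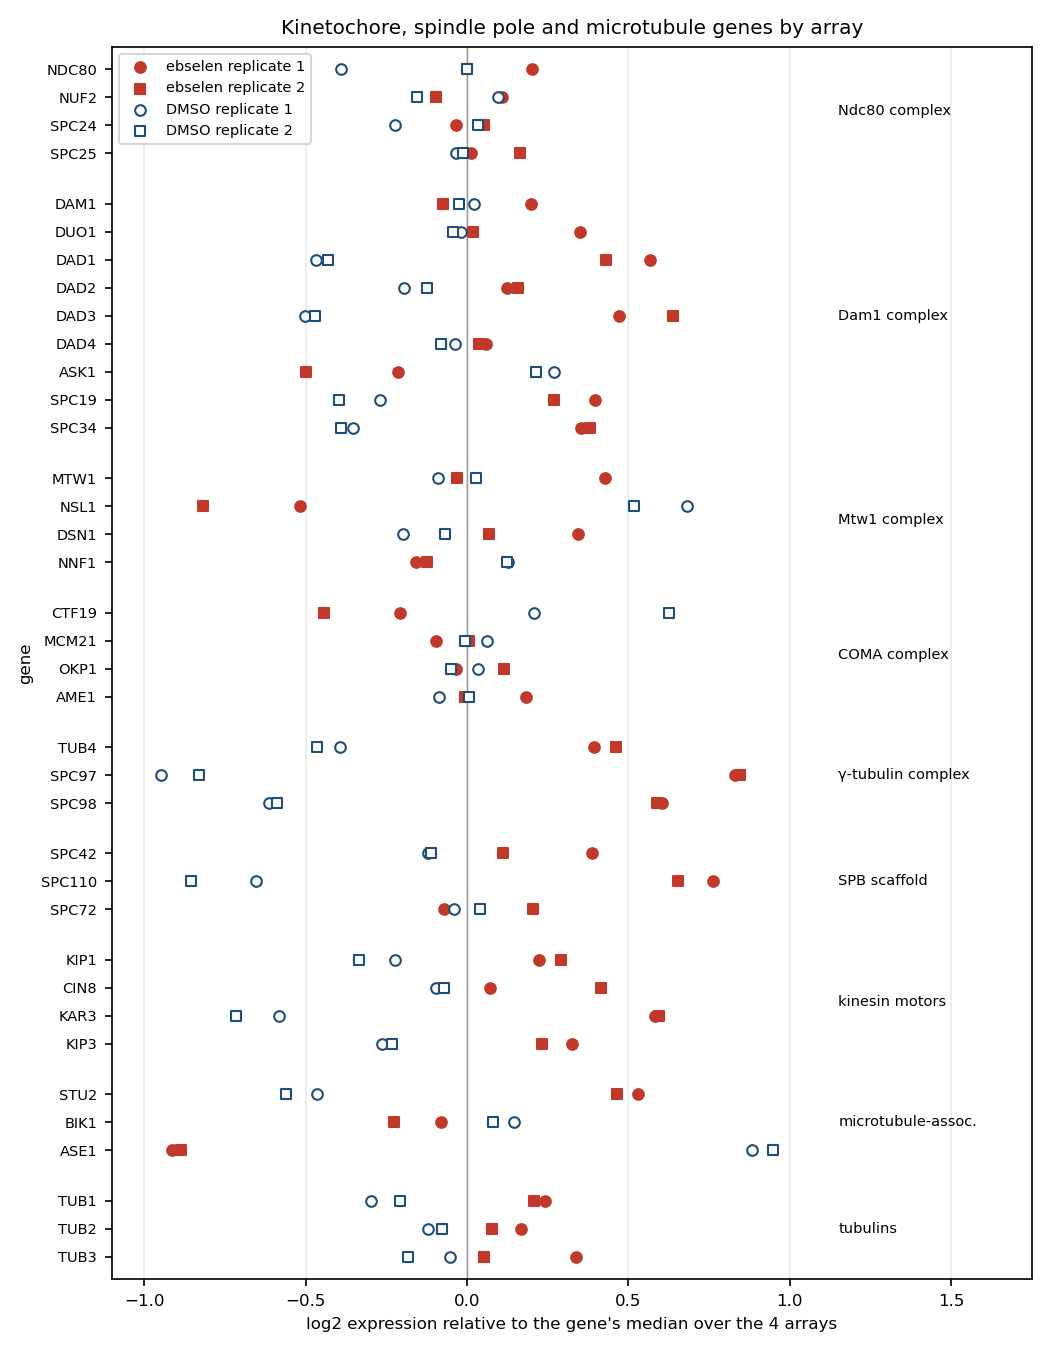
Log2 expression relative to the gene's median (horizontal axis) for each of the 37 genes (rows, by complex) in the 2 ebselen arrays (filled) and the 2 DMSO arrays (open); circles are replicate 1 and squares replicate 2. The groups are farthest apart for SPC97 and SPC110 (ebselen higher) and for ASE1 (ebselen lower), and they overlap for genes such as NUF2, OKP1 and SPC72.

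The γ-tubulin complex, which nucleates microtubules, had the highest median of the complexes (1.20), and all 3 of its genes rose. Among all genes 33.0% rose. SPC97 (YHR172W, which binds γ-tubulin together with Spc98) stood at 0.83 and 0.84 in the ebselen arrays, against −0.95 and −0.83 in the DMSO arrays. The ebselen replicates nearly coincided, the DMSO replicates were less close, and the groups lay far apart. Its change of 1.73 ± 0.062, or 3.31-fold, was the largest rise among the 37 genes and stood at the 99.4th percentile of all genes' changes (limma adjusted p = 3.40e-05). SPC98 (YNL126W) stood at 0.60 and 0.59 in ebselen, against −0.61 and −0.59 in DMSO. Again both ebselen arrays were high and the groups did not overlap, with a change of 1.20 ± 0.050, or 2.29-fold (limma adjusted p = 4.89e-05). TUB4 (YLR212C), which encodes γ-tubulin itself, stood at 0.39 and 0.46 in ebselen, against −0.39 and −0.46 in DMSO. It rose by 0.86 ± 0.058, or 1.81-fold (limma adjusted p = 0.000169). All 3 kept their rise with hybridization-control scaling (0.52 to 1.39) and in each of the 16 alternatives tried.

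The genes of the spindle pole body scaffold differed from each other. SPC110 (YDR356W), which anchors the γ-tubulin complex on the nuclear face, stood at 0.76 and 0.65 in the ebselen arrays, against −0.65 and −0.85 in the DMSO arrays. It rose by 1.46 ± 0.087, or 2.75-fold, the second largest rise of the 37 (limma adjusted p = 0.000115), and also with hybridization-control scaling (1.12). SPC72 (YAL047C), which holds the same complex on the cytoplasmic face, stood at −0.07 and 0.20 in ebselen, against −0.04 and 0.04 in DMSO. Its ebselen arrays lay on either side of both DMSO arrays, and its change of 0.07 ± 0.10 did not pass (95% interval −0.20 to 0.33). The intervals of these genes, 1.24 to 1.68 for SPC110 and that of SPC72, did not overlap. SPC42 (YKL042W), the core of the central plaque, stood at 0.39 and 0.11 in ebselen, against −0.12 and −0.11 in DMSO. The groups did not overlap, but the ebselen replicates were far apart. It rose by 0.37 ± 0.099 (limma adjusted p = 0.0209), and the call was lost without DMSO replicate 1 (0.0568), without DMSO replicate 2 (0.0535) and with hybridization-control scaling (0.03), while the change was 0.23 without ebselen replicate 1.

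All 4 kinesin motors had both ebselen arrays above both DMSO arrays, and 3 rose. Of all 5449 genes 2208 had their arrays in that order, and 33.0% rose. KAR3 (YPR141C), a kinesin that walks toward microtubule minus ends, stood at 0.58 and 0.60 in ebselen, against −0.58 and −0.72 in DMSO. It rose by 1.24 ± 0.065, or 2.36-fold (limma adjusted p = 8.00e-05). CIK1 and VIK1, which encode the alternative partner proteins of Kar3, rose as well (0.48 ± 0.051 and 0.74 ± 0.079); they were named after their values were seen. KIP1 (YBL063W), one of a pair of kinesin-5 motors that push the poles apart, stood at 0.22 and 0.29 in ebselen, against −0.22 and −0.33 in DMSO, and rose by 0.54 ± 0.064 (limma adjusted p = 0.00105). Its rise was 0.29 once the trend of the arrays with coding length was removed, and still passed (limma adjusted p = 0.0135). CIN8 (YEL061C), the other kinesin-5, stood at 0.07 and 0.41 in ebselen, against −0.10 and −0.07 in DMSO. The groups did not overlap, yet the spread between its ebselen arrays was wide and its change of 0.33 ± 0.12 did not pass (limma adjusted p = 0.0544). Without ebselen replicate 1 CIN8 passed (0.50, limma adjusted p = 0.00222). KIP3 (YGL216W), a kinesin-8 that shortens microtubules, stood at 0.33 and 0.23 in ebselen, against −0.26 and −0.23 in DMSO, and rose by 0.53 ± 0.058 (limma adjusted p = 0.000824). With hybridization-control scaling KAR3 still rose (0.90), KIP1 (0.20) and KIP3 (0.19) did not pass, and CIN8 changed by −0.01.

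The microtubule-associated proteins held the lowest value of the 37 genes beside a rise. ASE1 (YOR058C), which crosslinks antiparallel microtubules in the spindle midzone, stood at −0.91 and −0.88 in the ebselen arrays, against 0.88 and 0.95 in the DMSO arrays. Both ebselen arrays were low, with replicates close together, and the change was −1.82 ± 0.054, or 3.52-fold lower (limma adjusted p = 2.19e-05), at the 2.20th percentile of all genes' changes. STU2 (YLR045C), which speeds growth at microtubule plus ends, stood at 0.53 and 0.46 in ebselen, against −0.46 and −0.56 in DMSO. It moved the other way, rising by 1.01 ± 0.061, or 2.02-fold (limma adjusted p = 0.000121). BIK1 (YCL029C), a plus-end protein related to CLIP-170 of animals, stood at −0.08 and −0.23 in ebselen, against 0.15 and 0.08 in DMSO. It fell by 0.27 on the log2 scale (SE 0.070, limma adjusted p = 0.0194), a call lost without DMSO replicate 1 (0.0940), without ebselen replicate 2 (0.0562) and with the coding-length trend removed (change −0.17, limma adjusted p = 0.0645). ASE1 and STU2 kept their calls in all 16 alternatives.

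All 3 tubulin genes rose, by small amounts, while 33.0% of all genes rose. TUB1 (YML085C), the major α-tubulin, stood at 0.24 and 0.21 in ebselen, against −0.30 and −0.21 in DMSO, and rose by 0.48 ± 0.058, or 1.39-fold (limma adjusted p = 0.00109). TUB3 (YML124C), the minor α-tubulin, stood at 0.34 and 0.05 in ebselen, against −0.05 and −0.18 in DMSO, a change of 0.31 ± 0.11 (limma adjusted p = 0.0481). TUB2 (YFL037W), the only β-tubulin gene, stood at 0.17 and 0.08 in ebselen, against −0.12 and −0.08 in DMSO, a change of 0.22 ± 0.058 (limma adjusted p = 0.0185). In none of the 3 did the groups overlap, as in 86.6% of all genes. The difference TUB3 minus TUB1 was 0.09 and −0.16 in the ebselen arrays, against 0.24 and 0.03 in the DMSO arrays, and for this difference the arrays of the groups overlapped. With hybridization-control scaling, which also altered the standard errors, none of the 3 passed (TUB1 0.14, TUB2 −0.11 and TUB3 −0.02). Without DMSO replicate 1, DMSO replicate 2 or ebselen replicate 1 neither TUB2 (limma adjusted p 0.105, 0.0628 and 0.0596) nor TUB3 (0.0538, 0.160 and 0.120) passed, and the change of TUB3 was 0.17 without ebselen replicate 1.

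**Figure D2:**
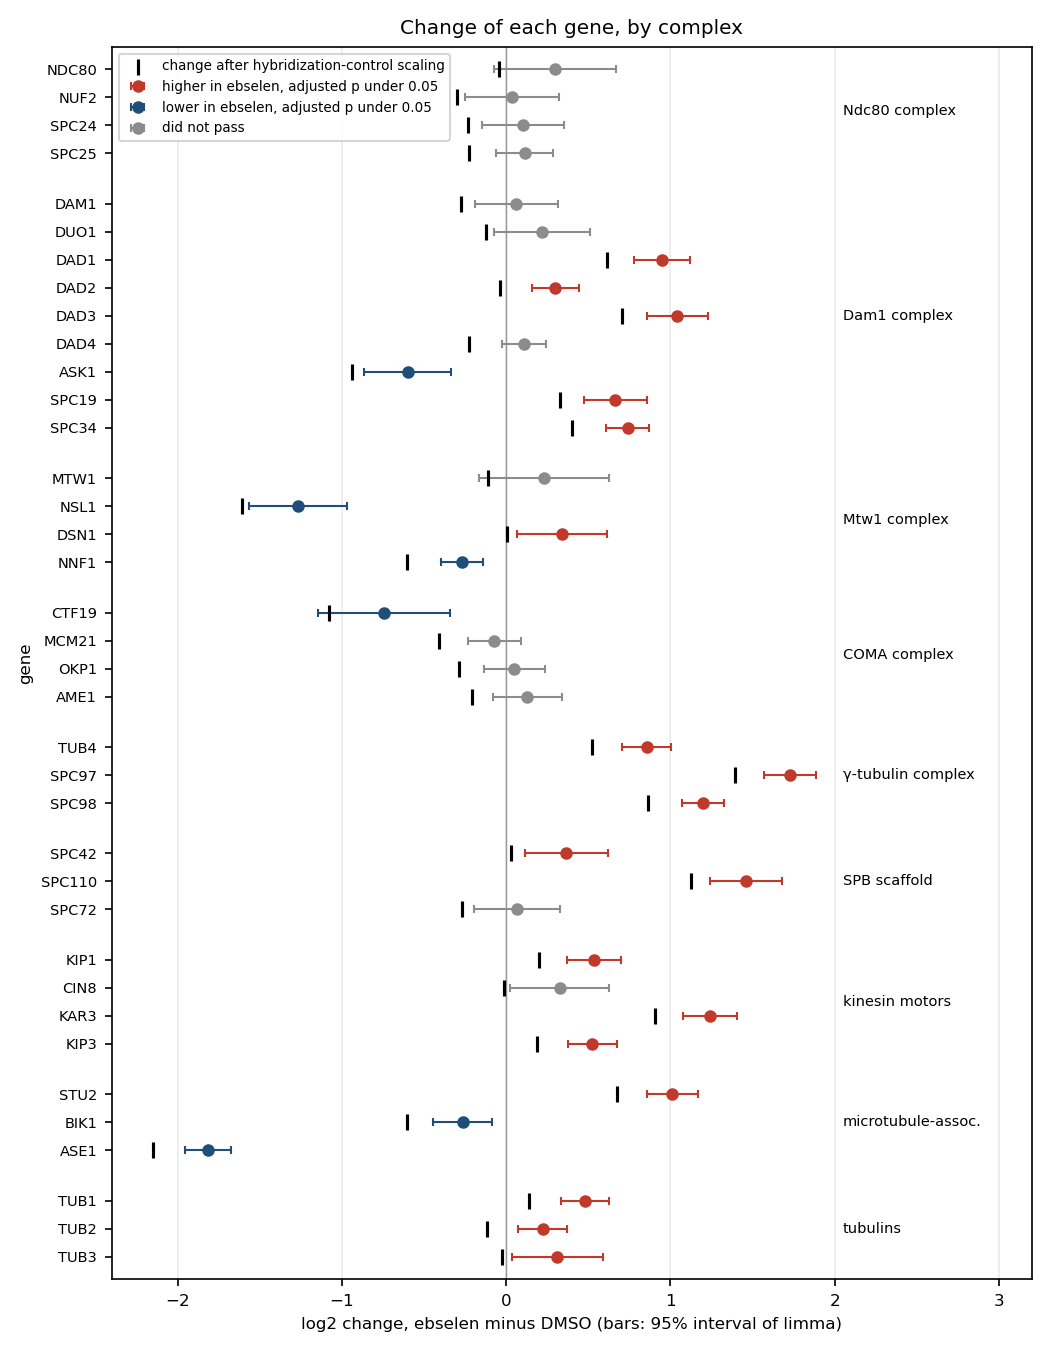
Log2 change, ebselen minus DMSO, of the 37 genes by complex, with limma's 95% interval; red genes rose, blue genes fell and grey genes did not pass, and black ticks give the change after hybridization-control scaling, which lowers every gene by 0.337. The γ-tubulin genes and SPC110 lie right of 0 on both scales and ASE1 and NSL1 left of it.

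At the kinetochore, 6 of 21 genes rose (28.6%) and 4 fell (19.0%), with a median change of 0.11. Neither share was larger than that over all genes (33.0% higher and 38.8% lower). The Ndc80 complex, the rod that binds the microtubule, was the complex in which 0 of 4 genes passed limma's test, 0 also at an unadjusted p under 0.05 and in the methods' t-test. NDC80 (YIL144W) stood at 0.20 and 0.00 in ebselen, against −0.39 and 0.00 in DMSO. It changed by 0.30 ± 0.15, with an interval of −0.08 to 0.67, and passed without DMSO replicate 2 (0.49, limma adjusted p = 0.0123). Its partner NUF2 (YOL069W) changed by 0.04 ± 0.11, with overlapping arrays. SPC24 (YMR117C) and SPC25 (YER018C), which fix the rod to the Mtw1 complex, changed by 0.10 ± 0.098 and 0.11 ± 0.069. SPC25 passed without ebselen replicate 1 (0.19, limma adjusted p = 0.0477). The upper ends of the intervals of NUF2, SPC24 and SPC25 were 0.32, 0.35 and 0.29, so rises beyond these sizes lay outside them. With hybridization-control scaling all 4 were negative, and NUF2 passed as lower (−0.30).

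The Dam1 complex, a ring that couples kinetochores to shortening microtubules, had 5 of 9 genes higher and 1 lower. Among all genes 33.0% were higher and 38.8% lower, together 71.7%. DAD3 (YBR233W-A) stood at 0.47 and 0.64 in ebselen, against −0.50 and −0.47 in DMSO, and rose by 1.04 ± 0.072, or 2.06-fold (limma adjusted p = 0.000178). DAD1 (YDR016C) stood at 0.57 and 0.43 in ebselen, against −0.47 and −0.43 in DMSO, and rose by 0.95 ± 0.066 (limma adjusted p = 0.000179). In both genes the ebselen arrays were high and the groups lay well apart. SPC34 (YKR037C) stood at 0.35 and 0.38 in ebselen, against −0.35 and −0.39 in DMSO, and rose by 0.74 ± 0.051. SPC19 (YDR201W) stood at 0.40 and 0.27 in ebselen, against −0.27 and −0.39 in DMSO, and rose by 0.67 ± 0.074. These 4 subunits kept their rise in all 16 alternatives. DAD2 (YKR083C) rose less, by 0.30 ± 0.055 (limma adjusted p = 0.00530), and was at −0.04 with hybridization-control scaling.

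One subunit of the ring fell. ASK1 (YKL052C) stood at −0.21 and −0.50 in ebselen, against 0.27 and 0.21 in DMSO. Its groups did not overlap and the change was −0.60 ± 0.10 (limma adjusted p = 0.00414), which did not pass in the methods' t-test (0.0871). DAM1 (YGR113W), which names the complex, changed by 0.06 ± 0.099, DUO1 (YGL061C) by 0.22 ± 0.11 and DAD4 (YDR320C-A) by 0.11 ± 0.052, and none passed. Without ebselen replicate 2, DAM1 (0.20, limma adjusted p = 0.0462) and DUO1 (0.38, limma adjusted p = 0.00515) did. Changes in the complex thus ran from −0.60 to 1.04, and the intervals of ASK1 (−0.86 to −0.33) and DAD3 (0.86 to 1.23) lay on opposite sides of 0.

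In the Mtw1 complex, which joins the Ndc80 rod to the inner kinetochore, 1 of 4 genes rose and 2 fell. The shares among all genes were 33.0% and 38.8%. NSL1 (YPL233W) stood at −0.52 and −0.82 in ebselen, against 0.68 and 0.52 in DMSO. Both ebselen arrays were low, and its change of −1.27 ± 0.12, or 2.41-fold lower, was the lowest of the 21 kinetochore genes (limma adjusted p = 0.000437), with the same call in all 16 alternatives. NNF1 (YJR112W) stood at −0.16 and −0.12 in ebselen, against 0.13 and 0.12 in DMSO. It fell by a smaller amount (−0.27 ± 0.051, limma adjusted p = 0.00577), and the change was −0.09 and did not pass once the trend of the arrays with coding length was removed. DSN1 (YIR010W) stood at 0.34 and 0.07 in ebselen, against −0.20 and −0.07 in DMSO. It rose by 0.34 ± 0.11 (limma adjusted p = 0.0349), a call lost without DMSO replicate 1 (0.121) or ebselen replicate 1 (change 0.20, limma adjusted p = 0.0796). MTW1 (YAL034W-A) stood at 0.43 and −0.03 in ebselen, against −0.09 and 0.03 in DMSO. Its ebselen replicates disagreed, and the change of 0.23 ± 0.16 did not pass, although it did without ebselen replicate 2 (0.46, limma adjusted p = 0.00592).

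In the COMA complex, nearest the centromere among these groups, 1 of 4 genes fell, against 38.8% of all genes. CTF19 (YPL018W) stood at −0.21 and −0.44 in ebselen, against 0.21 and 0.63 in DMSO. The groups did not overlap, although the replicates were wide apart, and the change was −0.74 ± 0.16 (limma adjusted p = 0.00891, and 0.128 in the methods' t-test). In the RefSeq annotation CTF19 overlaps IRC15, a microtubule-associated gene on the other strand, which fell by 1.80 on the log2 scale (SE 0.061). MCM21 (YDR318W), the partner of Ctf19, changed by −0.07 ± 0.063, and OKP1 (YGR179C) and AME1 (YBR211C), the pair that is essential for growth, changed by 0.05 ± 0.072 and 0.13 ± 0.082. None of these 3 passed and their arrays overlapped. AME1 passed without ebselen replicate 2 (0.22, limma adjusted p = 0.0448), and MCM21 (−0.41) and OKP1 (−0.29) passed as lower with hybridization-control scaling.

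The spread of the changes differed between the groups of genes. The SD of the change among members was 0.11 in the Ndc80 complex, in which no gene passed, 0.13 among the tubulins, 0.40 among the kinesins and in the COMA complex, and 0.44 in the γ-tubulin complex. It was 0.52 in the Dam1 complex, 0.73 in the Mtw1 complex and in the spindle pole body scaffold, and 1.42 among the microtubule-associated proteins, against 0.72 over all genes. With 3 to 9 genes in each group, these are descriptions.

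The other genes of the same structures, 71 listed of which 70 were measured, showed 38 rises and 18 falls, with a median of 0.25, against 33.0% rises and 38.8% falls over all genes. In the rest of the spindle pole body 8 of 11 genes rose and 2 fell, among them NUD1 (1.39 ± 0.085), a scaffold of the outer plaque, and CDC31 (−0.79 ± 0.052), the yeast centrin. Of 13 further motor and dynactin genes 9 rose and 2 fell, with DYN1, the dynein heavy chain (1.17 ± 0.064), and JNM1, a dynactin subunit (−0.61 ± 0.085), at the ends. Among 8 other spindle-associated genes, including securin and separase, 6 rose and 2 fell, led by STU1 (1.48 ± 0.075), a CLASP family protein, and IRC15. The spindle checkpoint had 3 of 6 higher and 1 lower (BUB3 0.97 ± 0.058, MAD2 −0.36 ± 0.056). The Ipl1 kinase complex with shugoshin had 3 of 5 higher and 2 lower (SLI15 1.31 ± 0.056, NBL1 −0.73 ± 0.17).

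Lists nearest the centromere and of tubulin folding were mixed, beside 33.0% rises and 38.8% falls (together 71.7%) over all genes. Of 8 centromere-binding genes 2 rose and 2 fell, with MIF2 (0.54 ± 0.055), the yeast CENP-C, and SCM3 (−1.57 ± 0.16), the chaperone of the centromeric histone, at the ends. Of 10 measured genes of the inner Ctf19 network 5 rose and 3 fell (CTF3 0.83 ± 0.049, NKP1 −0.61 ± 0.074). SPC105, a scaffold of the outer kinetochore, rose by 0.82 ± 0.052, while KRE28, its partner, fell by 0.31 on the log2 scale (SE 0.084). Of 6 tubulin-folding genes 1 rose and 3 fell. CIN2 (1.99 ± 0.059), which acts in the folding of β-tubulin, had the largest rise of all the spindle and kinetochore genes listed here, and PAC2 (−0.70 ± 0.064), an α-tubulin chaperone, the largest fall of its list.

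**Figure D3:**
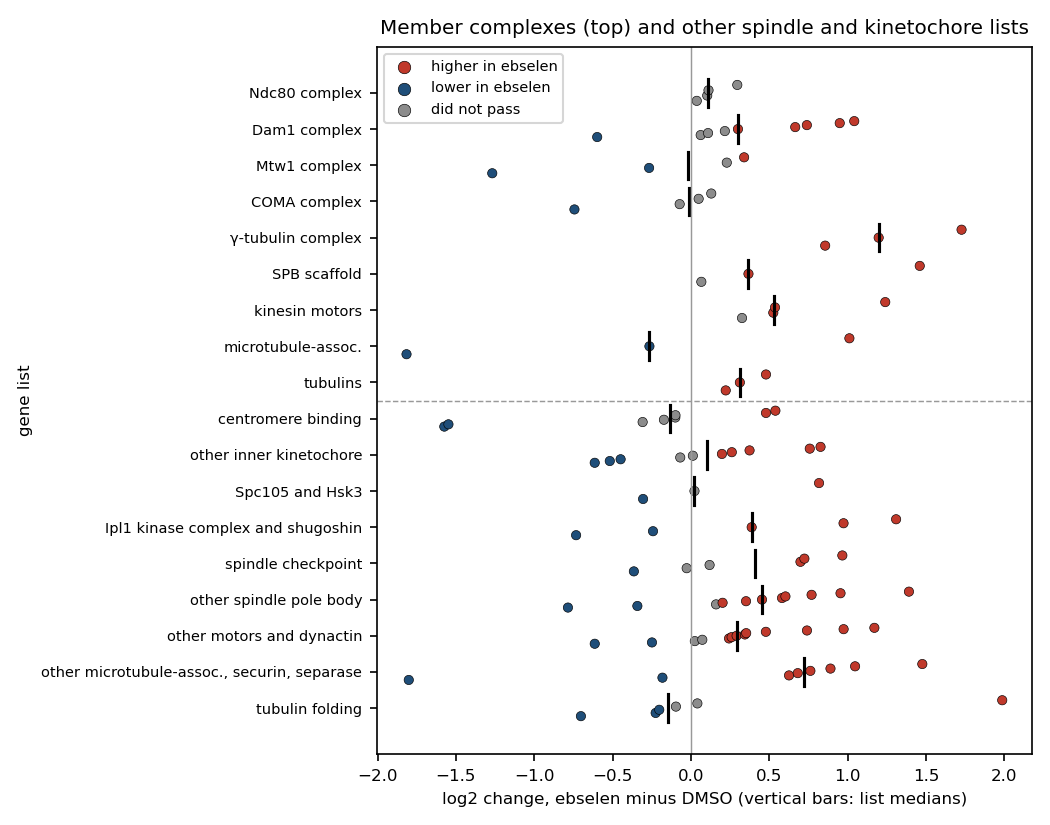
Log2 change, ebselen minus DMSO, of the 37 genes by complex (above the dashed line) and of the 70 other measured genes (below it); red rose, blue fell, grey did not pass, and vertical bars are list medians (SPB, spindle pole body). Medians are highest for the γ-tubulin complex (1.20) and lowest for the microtubule-associated proteins (−0.27), where ASE1 and STU2 lie on opposite sides.

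Markers of cell-cycle phases moved with the groups in the same arrays. All 12 G1/S marker genes rose, with a median of 1.52; of 8 measured G2/M marker genes 6 rose and 0 fell, with a median of 0.58; of 7 measured core histone genes 4 rose and 0 fell, with a median of 0.16. Of 9 M/G1 marker genes 6 fell and 0 rose, with a median of −0.35. For comparison, 33.0% of all genes rose and 38.8% fell, together 71.7%, with a median of −0.03. In RNA from whole cultures, more cells in a phase and more RNA per cell cannot be told apart, and the part of these markers in the spindle gene changes was not tested.

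The 5′ and 3′ ends of control transcripts also differed between the groups. Of 8 yeast control transcripts probed at both ends, all 8 had a lower 5′ minus 3′ value in the ebselen arrays, by a mean of −0.75 ± 0.26 (SD over the transcripts). Longer genes among the 37 tended to have higher changes: Spearman's rho between change and coding length (introns included) was 0.30 over the 37 genes and 0.19 over all genes, as descriptions over genes of the same arrays. Of the 10 genes longer than 2000 bases 7 rose, and the others were NDC80 and CIN8, which did not pass, and ASE1. The median change was 0.17 for the 14 genes under 1000 bases and 0.33 for the other 23. These counts and medians were not made for all genes of such lengths, so they cannot be told apart from the trend over all genes. After the trend of each array with coding length was removed, 23 of the 37 genes rose and 4 fell, and SPC97, SPC98, SPC110, KAR3, STU2, DAD3, NSL1 and ASE1 kept their calls. In that fit 22 of the 24 called genes kept their call, NNF1 and BIK1 lost theirs, 5 others were gained, and the uncalled change of CIN8 was 0.10. The coding-length fit does not measure 5′ signal, and the part of the 5′ difference in these changes was not tested.

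**Figure D4:**
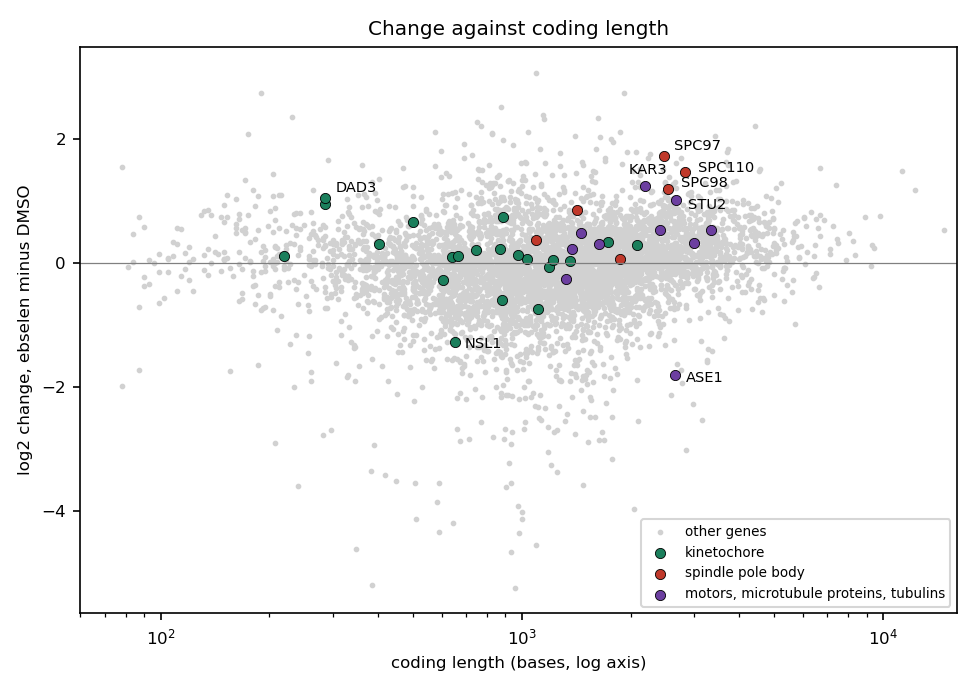
Log2 change, ebselen minus DMSO, against coding length in bases (log axis) for the 37 genes (coloured by structure) and all other genes (grey). SPC97, SPC110, SPC98, KAR3 and STU2 lie among the long genes, DAD3 is short, and ASE1 is close to STU2 in length but lies at −1.82.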

How the data were processed

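RMA was the authors' normalization, per the submitters' processing notes, and GeneSpring with a t-test their analysis, per the labels' design text. The deposited table holds log2 values centred on each probe set's median over the 4 arrays (largest row median 5e-07); base 2 was assumed, as RMA gives it, because no source used here names the base. Having 2 arrays per group limits the precision.

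The platform annotation gave 1 symbol to 7244 of 10928 probe sets, several to 1 and none to 3683. A RefSeq gene table (assembly R64, used for names, neighbours and lengths) placed 5498 probe sets on 5449 genes, averaged per gene; 1746 others were taken as fission yeast. No coordinates are given. No filter on low values was possible, since centred values keep no brightness.

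Ebselen and DMSO arrays were compared with limma 3.58.1 in R 4.3.3 (lmFit, eBayes, two-sided, group only), with p-values adjusted over all genes. The code was first tried on 20 simulated sets with 200 changed genes each and no 5′ difference, against 3909 called genes here. That trial does not measure the error in these arrays. Complexes, gene lists and members were chosen with earlier results of these data known. In each list of other genes the largest passing rise and fall are named. Alternatives were the replicate block, each array left out, other scalings, probe set choices, variance models, thresholds and the methods' t-test. Figures used matplotlib 3.10.9.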

Additional observations from a re-analysis of the deposited data

How the results depend on the processing

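Each of the 37 genes was refitted under 16 alternatives, and the same call and direction held in all of them for SPC97, SPC98, TUB4, SPC110, KAR3, STU2, DAD1, DAD3, SPC19, SPC34, NSL1 and ASE1. Some alternatives left little room to differ. Each of the 37 genes has 1 probe set, so taking 1 probe set per gene left their values as they were. A threshold of 0.10 could only add calls. Hybridization-control scaling could not turn the sign of a fall or of a rise above 0.337. The number of genes higher ran from 14 to 22, the number lower from 5 to 6 and the median change from 0.19 to 0.38 over the fits that left out 1 array, with 22 higher without ebselen replicate 2 and 14 without DMSO replicate 1; with 1 array in a group, its spread was taken as that of the other. With the replicate number as a block (replicate block), 17 genes were higher and 6 lower, DSN1 being the call lost (adjusted p = 0.0809); same-numbered arrays did not deviate together over genes (correlation −0.08). The methods' t-test called 14 higher and 3 lower, losing ASK1, DSN1, CTF19, SPC42, BIK1, TUB2 and TUB3. Over all genes it called 1233 higher and 1410 lower. With all probe sets in the fit 14 genes were higher and 5 lower, and DSN1, SPC42, BIK1, TUB2 and TUB3 lost their calls. The same 5 lost theirs at a threshold of 0.01, and DSN1 lost its call in 8 of the 16 alternatives.

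Hybridization-control scaling lowered every gene's change by the same 0.337. Then 10 genes were higher, 9 were lower and the median was −0.041. DAD2, DSN1, SPC42, KIP1, KIP3, TUB1, TUB2 and TUB3 lost their calls. Each array was shifted by its own value, so the standard errors altered too (ASE1 limma adjusted p = 2.98e-56, against 2.19e-05 in the main fit). The parts of the shift and of the standard errors in the lost calls were not tested. Changes of the other sign were then found for NDC80 (−0.041), NUF2 (−0.30), SPC24 (−0.23), SPC25 (−0.22), DAM1 (−0.27), DUO1 (−0.12), DAD2 (−0.037), DAD4 (−0.23), MTW1 (−0.11), OKP1 (−0.29), AME1 (−0.21), SPC72 (−0.27), CIN8 (−0.011), TUB2 (−0.11) and TUB3 (−0.025). Centring on the fission yeast probe sets also shifted each array by its own value and every gene's change alike. It ended the calls of DSN1, TUB2 and TUB3. NUF2 was then at −0.029, DAM1 at −0.0043, OKP1 at −0.017 and SPC72 at −0.00020, and none of these 4 passed. These changes of sign follow from the size of the shift. Removing the coding-length trend ended the calls of NNF1 (−0.087) and BIK1 (−0.17), gave MCM21 0.051 and called SPC24, SPC25, DUO1, MTW1 and AME1 higher. Over the fits that left out 1 array, uncalled genes crossed 0: NUF2 (−0.089 to 0.16), SPC24 (−0.025 to 0.23), DAM1 (−0.073 to 0.20), OKP1 (−0.026 to 0.12) and SPC72 (−0.072 to 0.20). The cause of the changes under the coding-length and left-out-array fits was not tested. The count of promoter motifs could not be run without promoter sequences. Centred values keep no signal over background, so what dim probe sets limit is unknown.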
